A study of Homo sapiens with 10 samples.

Results

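The genes described here are 40 human interferon-stimulated genes. They were chosen by name, and all 40 were found among the 63187 genes of a table of read counts. The counts come from RNA-seq of U2OS cells, an osteosarcoma line, in 3 groups of 2 libraries, made in a study of DNA repair genes in heat shock. Unheated controls (NHS in the labels) and heat-shocked controls (HS) carry the genotype label WT and received a control reagent, shCtrl in the titles and siCtrl in the descriptions. The knockdown group was also heat-shocked, carries the genotype label shYTHDC1 (siDC1 in the descriptions), and received a reagent against YTHDC1, a nuclear protein that binds N6-methyladenosine in RNA. How hot and how long the heat shock was is not given in the sources used here, and no unheated knockdown cells are among these groups, so a knockdown difference without heat was not measured. No label says that replicate libraries were grown as separate cultures, and p-values here reflect the spread between libraries, which may be technical.

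Interferons are secreted proteins that cells make when they sense viral nucleic acid. Type I interferons bind the receptor IFNAR1-IFNAR2, whose kinases JAK1 and TYK2 phosphorylate STAT proteins. With IRF9 these form a complex that binds the interferon-stimulated response element (ISRE) in promoters, while interferon gamma acts through the gamma-activated site (GAS). The genes switched on this way encode proteins that bind or cut viral RNA, block viral entry or release, sense nucleic acid, or feed back on the pathway, and many are transcribed at a low level in cells to which no interferon was added.

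Levels are given as CPM, a gene's reads scaled to the library's size with edgeR's TMM factor, and library totals ran from 13252370 to 15500743 counts. YTHDC1 itself stood at 213 and 225 CPM without heat, 268 and 258 with heat and 121 and 118 with heat and knockdown (log2 fold change -1.14 ± 0.05 SE against heat-shocked controls). The 7 mesenchymal and osteosarcoma markers summed to between 5520 and 6370 CPM in the 6 libraries. The highest and the lowest sum were those of the knockdown libraries, where 3 of the markers were called higher and 3 lower. The 7 leukocyte markers summed to between 5.42 and 6.74 CPM in the 4 control libraries and to 4.01 and 3.69 CPM in the knockdown, where ITGAM, which made up most of the sum, fell (log2 fold change -1.11, adjusted p = 0.00016), and CD3E was at 0 reads everywhere. The 3 endothelial markers summed to between 3.08 and 5.36 CPM, highest in the knockdown. There VWF was called higher and PECAM1 lower, with 0 reads of PECAM1 in both libraries. PECAM1 was tested only because the heat-shocked controls had enough reads, so its lower call is not independent of that selection. The plasmacytoid dendritic cell markers LILRA4 and CLEC4C were at 0 reads in all 6, and IL3RA, which matched several gene identifiers, was left out. The 5 epithelial markers summed to 686 and 735 CPM without heat, 802 and 819 with heat and 908 and 939 with heat and knockdown, where 4 were called higher and 1 lower. The leukocyte, endothelial and epithelial sums moved with the groups. The part of marker changes in the results was not tested. By the labels all 6 libraries are of the U2OS line. In such bulk samples fewer cells that express a marker and less of its RNA per cell cannot be told apart.

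Of the 40 genes, 34 had enough reads to be tested and 6 did not (OAS2, IRF7, HERC5, CXCL10, CXCL11 and EPSTI1). Of the 34, IFI35, RIGI and XAF1 were above the filter in 1 group only. The filter favours a difference between groups in genes that pass in this way, so their calls are not independent of it. With heat shock in control cells, 20 of the 34 fell, 4 rose and 10 were not called at an edgeR adjusted p under 0.05. The 20 made up 58.8% of the 34, while 23.3% of all 17290 tested genes were called lower and 20.6% higher. The median log2 fold change was -0.60 over the 34 and -0.03 over all genes. Of the 34, 7 were at least 2-fold lower and 2 at least 2-fold higher. Of all 17290 tested genes, 606 were called at least 2-fold lower and 1006 at least 2-fold higher. With library size alone in place of TMM scaling, 36.5% of the called genes of the whole table were higher, against 46.9%. With YTHDC1 knockdown in heat-shocked cells, 26 of the 34 fell, 1 rose and 7 were not called. The 26 made up 76.5%, against 27.2% of all tested genes called lower and 27.4% called higher. Here the median was -1.25, against -0.00 over all genes. Of the 34, 19 were at least 2-fold lower and 0 at least 2-fold higher, against 1139 and 1058 of all 17290. Without the 3 genes that passed in 1 group only, 18 of 31 fell with heat and 24 of 31 in the knockdown. All heat-shocked control libraries enter both comparisons, so a high or low value in them moves both, in opposite directions.

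**Figure D1:**
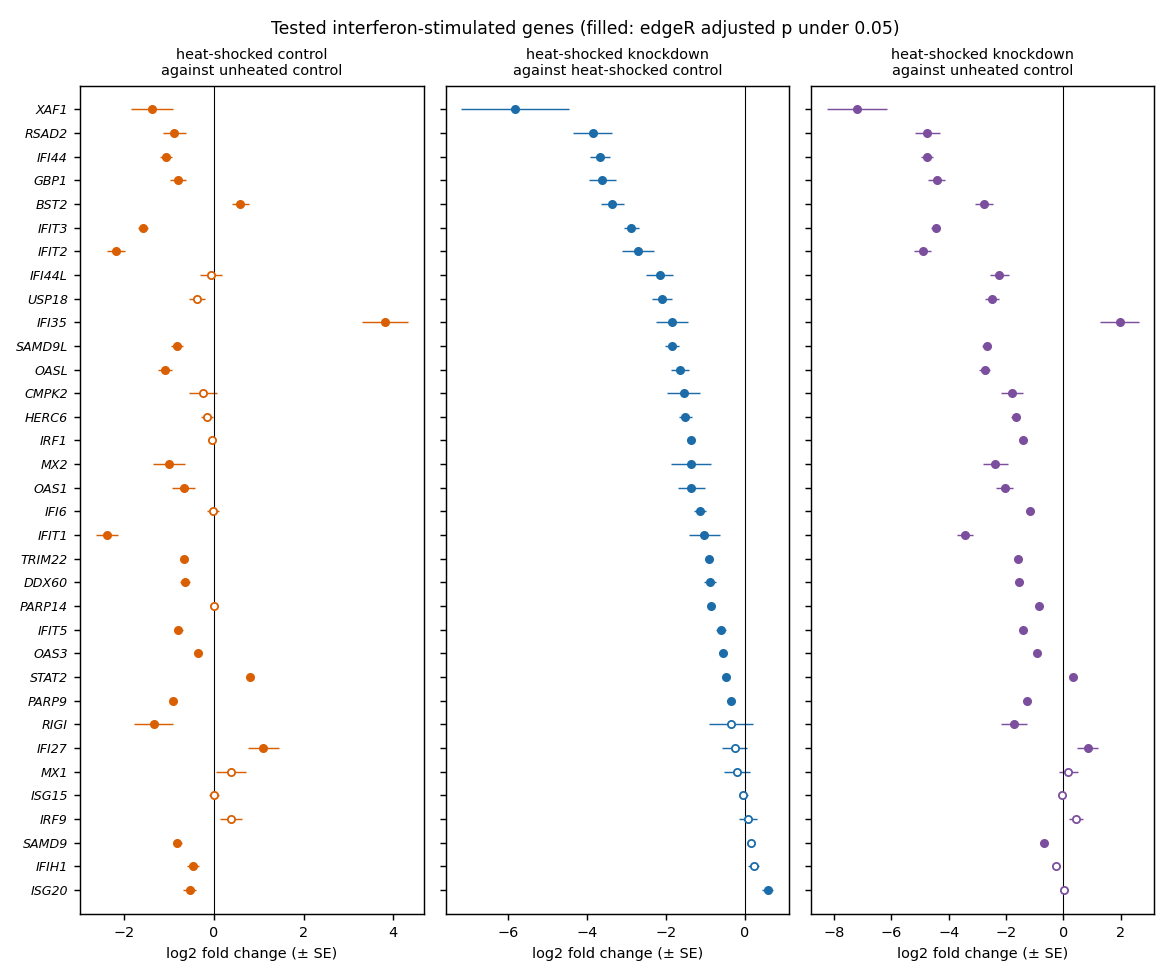
Log2 fold change (horizontal axis, with SE as bars) of the 34 tested genes, ordered by their change in the knockdown, for heat-shocked against unheated controls, knockdown against heat-shocked controls and knockdown against unheated controls. Filled points passed the test, 24, 27 and 29 of the 34 in turn. The knockdown points lie mostly left of zero, IFI35 stands far right with heat, and the point of XAF1, which had no reads in the knockdown, depends on the prior count of the fit.

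Promoter sequence was looked at because most of these genes moved the same way. RefSeq windows on GRCh38.p14, from 250 bases before to 50 after the start site, were matched for 33 of the 40 genes. They were searched on both strands, overlapping matches included, for the core of the ISRE, GAAANNGAAA, and for the GAS, TTCNNNGAA. Of the 33 windows, 20 (60.6%) held the ISRE core and 10 (30.3%) the GAS, against 3.64% and 7.88% of the 27326 windows of all genes. The genes were chosen by name as interferon-stimulated, so this excess can come from that choice alone. It is not a result about heat shock or knockdown. Among tested genes with a window, the ISRE core was in 11 of the 21 that fell in the knockdown and in 6 of the 8 that were not called lower there. With heat it was in 10 of 16 that fell and in 7 of 13 that were not called lower. The GAS was in 6 of the 21 and 2 of the 8 by the knockdown call. By the heat call it was in 2 of the 16 and 6 of the 13. These splits were not tested. A match describes letters only and shows no binding.

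**Figure D2:**
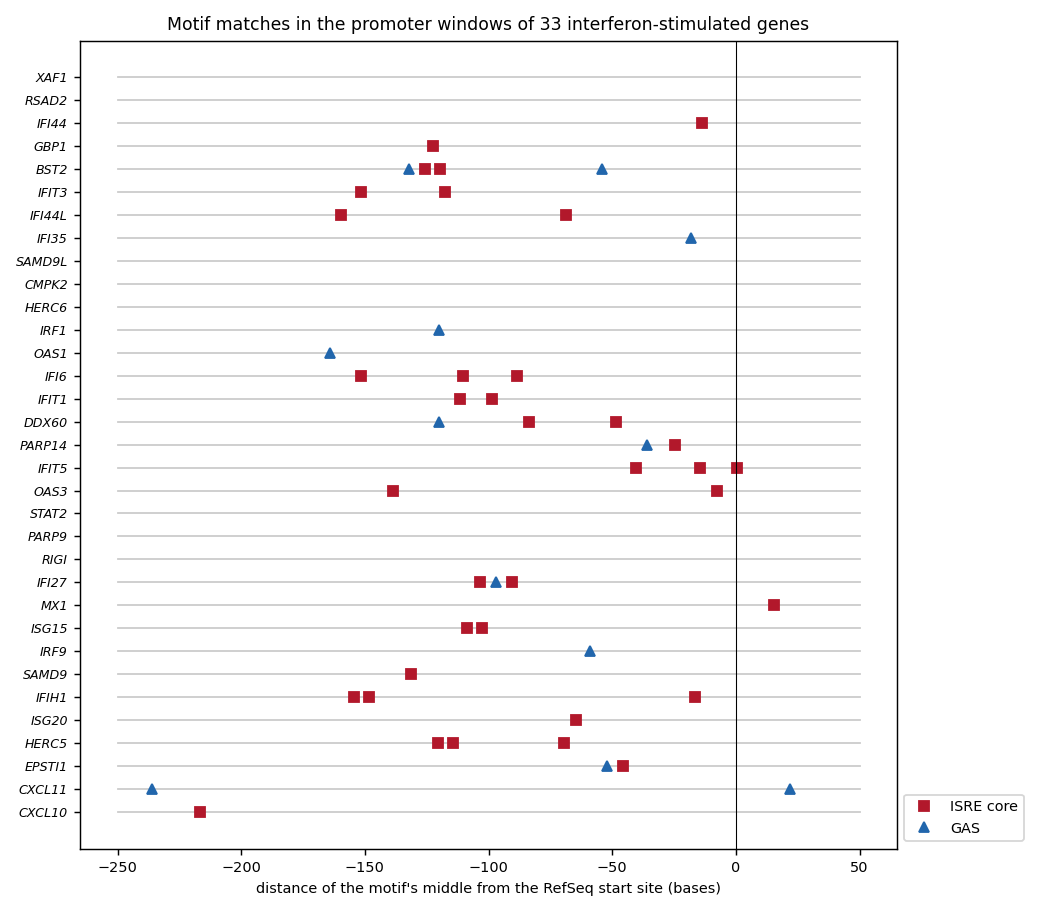
Middle of each ISRE core (squares) and GAS (triangles) match in the promoter windows of 33 interferon-stimulated genes, by distance in bases from the RefSeq start site (vertical line at 0). Grey lines are the windows from 250 bases before to 50 after the start. Tested genes run from the largest fall in the knockdown at the top, and genes too low to test are at the bottom. Matches are found from top to bottom of the order, and 20 of the 33 rows hold a square.

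The windows of the genes of at least 5 CPM with the largest knockdown changes are shown here, cut to the bases around a match and ending before the start site. OASL, also among these 6, is named only. Capitals mark the ISRE core in IFI44 and IFIT3 and the GAS in IRF1. Matches read TTTC first where the core lies on the opposite strand.
IFI44, chr1:78649731-78649788, forward strand: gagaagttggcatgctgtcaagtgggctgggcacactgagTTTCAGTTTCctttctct
IFIT3, chr10:89327801-89327924, forward strand: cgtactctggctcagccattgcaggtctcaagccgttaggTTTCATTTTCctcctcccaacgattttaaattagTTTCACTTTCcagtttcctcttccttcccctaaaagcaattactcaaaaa
IRF1, chr5:132490849-132490937, reverse strand: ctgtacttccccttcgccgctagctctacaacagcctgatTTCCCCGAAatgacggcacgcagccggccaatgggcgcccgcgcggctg
In IFI44 the match starts 18 bases before the start site. IFIT3 has matches starting 156 and 122 bases before it, and the GAS of IRF1 starts 124 bases before it. The windows of SAMD9L and HERC6 held neither motif and are given from base 250 before the start site to the last base before it.
SAMD9L, chr7:93148386-93148635, reverse strand: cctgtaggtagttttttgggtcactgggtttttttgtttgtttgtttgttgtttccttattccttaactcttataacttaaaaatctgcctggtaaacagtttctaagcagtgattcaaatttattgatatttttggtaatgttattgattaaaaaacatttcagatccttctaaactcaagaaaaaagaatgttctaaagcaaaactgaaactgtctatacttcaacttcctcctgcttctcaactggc
HERC6, chr4:88378602-88378851, forward strand: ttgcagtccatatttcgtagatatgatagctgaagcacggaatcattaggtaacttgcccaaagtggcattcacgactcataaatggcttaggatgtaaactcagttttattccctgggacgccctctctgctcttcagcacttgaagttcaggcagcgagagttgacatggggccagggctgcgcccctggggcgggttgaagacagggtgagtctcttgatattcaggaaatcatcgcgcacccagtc
For comparison, the window of ISG15, a gene called in neither comparison and chosen after its values were seen, holds overlapping ISRE cores, both in capitals.
ISG15, chr1:1013344-1013439, forward strand: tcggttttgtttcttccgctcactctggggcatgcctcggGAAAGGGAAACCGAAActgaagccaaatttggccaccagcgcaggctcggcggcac

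The IFIT genes encode proteins with tetratricopeptide repeats, which bind foreign RNA ends and block translation. All 4 measured genes of the family fell with heat and again in the knockdown. They lie in a cluster on chromosome 10. IFIT3 (ENSG00000119917, chromosome 10, 89327997 to 89340968), which binds and stabilises IFIT1, had 31.6 and 31.9 CPM unheated, 10.8 and 10.5 CPM after heat shock and 1.76 and 1.11 CPM in the knockdown. The 3 groups did not overlap, with the unheated libraries highest and the knockdown libraries lowest. It fell with heat (log2 fold change -1.58 ± 0.11 SE, adjusted p = 1.89e-11), and the knockdown left 13.6% of the heat-shocked level (log2 fold change -2.88 ± 0.20, adjusted p = 9.85e-12). IFIT1 (ENSG00000185745, chromosome 10, 89392623 to 89406487), which binds RNA that lacks cap methylation, had 12.9 and 12.1 CPM unheated and 2.23 and 2.51 CPM after heat shock (log2 fold change -2.39 ± 0.25 SE, adjusted p = 4.09e-07). Its knockdown libraries stood far apart, at 0.422 and 1.88 CPM. They lay below both heat-shocked controls (log2 fold change -1.03 ± 0.39, adjusted p = 0.0346), but the call rests on knockdown replicate 1, without which it was -0.34 with adjusted p = 0.402. Without knockdown replicate 2 it was -2.47. Leaving out any control library also ended the call (adjusted p between 0.0607 and 0.161), as did DESeq2 (0.28) and a fit of only the 2 groups (0.0588).

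IFIT2, whose product joins IFIT1 and IFIT3 in a complex, was at a mean of 4.03 CPM and is given by its changes, -2.19 ± 0.20 with heat and -2.71 ± 0.41 in the knockdown (adjusted p = 4.4e-09 and 5.81e-06). IFIT5 (ENSG00000152778, chromosome 10, 89414568 to 89420997), which binds RNA with triphosphate ends, had 28.7 and 25.3 CPM unheated, 15.8 and 15.2 CPM after heat shock and 10.3 and 9.88 CPM in the knockdown. The groups were again in separate ranges, with smaller steps (-0.80 ± 0.10, adjusted p = 5.24e-07, and -0.61 ± 0.12, adjusted p = 0.000125). The RefSeq span of LIPA, a lysosomal lipase, covers all 4 IFIT genes. LIPA was called higher in the knockdown (log2 fold change 0.96) and not called with heat (-0.15, adjusted p = 0.114). Whether the counting used strand is not given in the sources used here, so reads of overlapping genes may be shared.

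**Figure D3:**
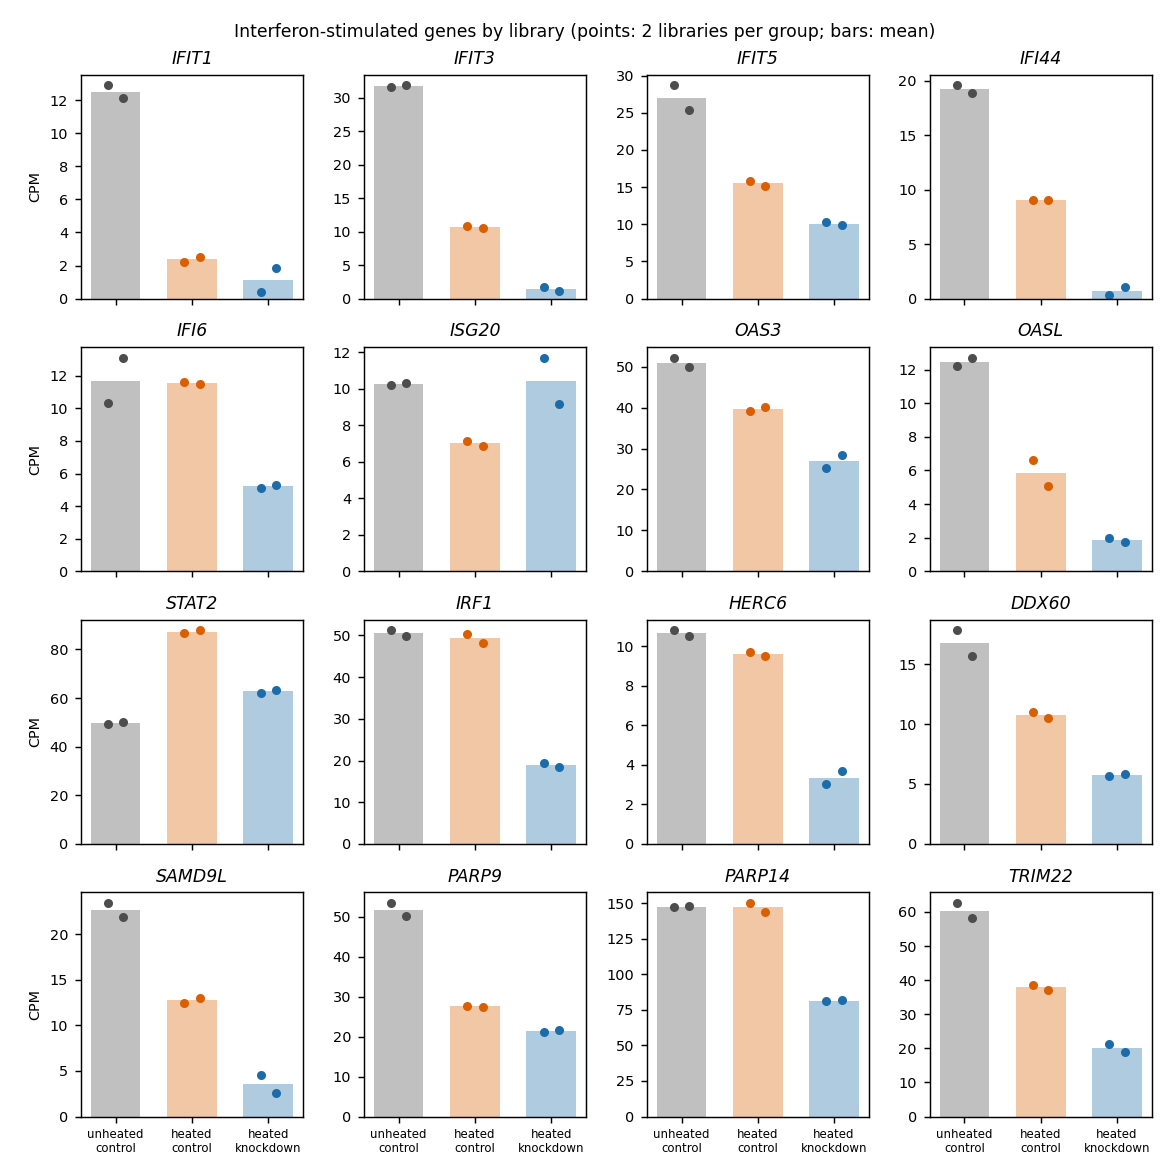
CPM (vertical axes, each from 0) of the 16 interferon-stimulated genes of at least 5 CPM on average that were called in the knockdown, by group. Points are the 2 libraries of a group and bars their mean. In 14 of the 16 the knockdown libraries are the lowest, STAT2 is highest in heat-shocked controls, and ISG20 is lowest there.

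The OAS enzymes make 2',5'-linked oligoadenylates that switch on RNase L, and OASL is a relative without that activity that enhances RIG-I signalling. OAS3 (ENSG00000111331, chromosome 12, 112938474 to 112973251) had 52.2 and 49.9 CPM unheated, 39.1 and 40.1 CPM after heat shock and 25.3 and 28.5 CPM in the knockdown. The libraries of the 3 groups did not overlap, and each step was modest (log2 fold change -0.37 ± 0.07 SE, adjusted p = 0.000167, and -0.56 ± 0.08, adjusted p = 2.2e-06). OASL (ENSG00000135114, chromosome 12, 121017761 to 121039246) fell further, from 12.2 and 12.7 CPM to 6.61 and 5.09 CPM with heat (log2 fold change -1.09 ± 0.15, adjusted p = 2.29e-06). The knockdown libraries, at 1.97 and 1.74 CPM, held 31.9% of the heat-shocked level (-1.65 ± 0.22, adjusted p = 7.71e-07). OAS1, beside OAS3 on chromosome 12, had a mean of 2.25 CPM. It was called lower in both comparisons (-0.68, adjusted p = 0.0321, and -1.36, adjusted p = 0.00143). Its heat call was lost with DESeq2 (adjusted p = 0.314) and without unheated replicate 1 (0.172), unheated replicate 2 (0.0592), heat-shocked control replicate 1 (0.113) or replicate 2 (0.0977). OAS2 was too low to test, with 5 and 10 reads unheated, 3 and 8 after heat shock and 0 in both knockdown libraries. Against a floor of 3 reads over the group, OAS2 was 3.89-fold lower in the knockdown than in heat-shocked controls. That value takes the control reads as exact, so it is no strict lower bound. It rests on replicate 2 of those controls, which gave 8 of the 11 reads.

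IFI44 (ENSG00000137965, chromosome 1, 78649789 to 78664078), a cytoplasmic protein, had the largest knockdown change among the genes of at least 5 CPM. IFI44 had 19.6 and 18.9 CPM unheated, 9.08 and 9.1 CPM after heat shock and 0.352 and 1.04 CPM in the knockdown. Heat left 47.3% of the unheated level (log2 fold change -1.08 ± 0.13 SE, adjusted p = 4.8e-07). The knockdown left 7.78% of the heat-shocked level (log2 fold change -3.68 ± 0.26, adjusted p = 1.76e-11), and against unheated controls the log2 fold change was -4.76. Without knockdown replicate 2 these values were -4.66 and -5.74. Its neighbour IFI44L, at 2.16 CPM on average, was not called with heat (-0.07, adjusted p = 0.854) and fell in the knockdown (-2.17 ± 0.35, adjusted p = 1.25e-05).

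IFI6 (ENSG00000126709, chromosome 1, 27666064 to 27672192), a mitochondrial and endoplasmic reticulum protein that inhibits apoptosis, had 10.3 and 13.1 CPM unheated and 11.6 and 11.5 CPM after heat shock. Those groups overlapped and no change was called (-0.02, adjusted p = 0.911). The knockdown libraries, at 5.14 and 5.29 CPM, lay below all others (log2 fold change -1.15 ± 0.16, adjusted p = 1.11e-06). IFI27, a mitochondrial protein at 1.47 CPM on average, was called higher with heat (1.11 ± 0.34, adjusted p = 0.0114) and not called in the knockdown (-0.26, adjusted p = 0.506). The heat call of IFI27 was lost with DESeq2 (adjusted p = 0.154) and without unheated replicate 1 (0.0583), unheated replicate 2 (0.0517) or heat-shocked control replicate 2 (0.111).

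IFI35, a leucine zipper protein that pairs with NMI, went the other way from most of the genes with heat, and is shown by library because of that, chosen after its values were seen. It had 0.252 and 0.128 CPM unheated, 1.92 and 3.66 CPM after heat shock and 1.06 and 0.487 CPM in the knockdown. It passed the filter only through the heat-shocked controls, and it is the largest rise of the 34 with heat (log2 fold change 3.82 ± 0.52 SE, adjusted p = 1.69e-06). In the knockdown it fell (-1.86 ± 0.40, adjusted p = 0.000389), by 2.51 on the log2 scale without knockdown replicate 1. Its gene lies 151 bases from VAT1, which had 127 CPM on average and changed by -0.24 with heat and -0.53 in the knockdown. XAF1, a proapoptotic antagonist of XIAP, had 22 and 18 reads unheated, 7 and 6 after heat shock and 0 in both knockdown libraries. Against a floor of 3 reads over the group, it was 4.6-fold lower in the knockdown than in heat-shocked controls and 12.1-fold lower than in unheated controls. These values take the control reads as exact, so they are no strict lower bounds. The heat call of XAF1 (-1.38, adjusted p = 0.018) was lost with DESeq2 (0.288) and on leaving out unheated replicate 1 (0.149), unheated replicate 2 (0.0596), heat-shocked control replicate 1 (0.0681) or replicate 2 (0.143).

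ISG15 is a ubiquitin-like protein that is attached to other proteins, HERC5 is its main human ligase, HERC6 a relative, and USP18 removes ISG15 and also blocks the receptor IFNAR2. ISG15 was called in neither comparison, and its values are given for that reason, chosen after they were seen. It had 17.8 and 18.1 CPM unheated, 15.8 and 19.8 CPM after heat shock and 17.2 and 17.5 CPM in the knockdown. The ranges overlapped and no change was called (log2 fold change -0.01 ± 0.11, adjusted p = 0.964, and -0.04 ± 0.11, adjusted p = 0.777). HERC6 (ENSG00000138642, chromosome 4, 88378852 to 88443097) had 10.8 and 10.5 CPM unheated and 9.69 and 9.53 CPM after heat shock, a difference that was not called (-0.15, adjusted p = 0.391). In the knockdown HERC6 had 3.03 and 3.69 CPM, well below all other libraries (log2 fold change -1.51 ± 0.17, adjusted p = 4.61e-08). USP18, at 4.2 CPM on average, was not called with heat (-0.39, adjusted p = 0.0886), though it was with library size alone (-0.46, adjusted p = 0.0417), and fell in the knockdown (-2.10 ± 0.26, adjusted p = 2.16e-07). HERC5 had between 1 and 3 reads in each library and was not tested.

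The RNA helicases RIGI (RIG-I) and IFIH1 (MDA5) sense viral RNA, and DDX60 is a helicase reported to assist RIG-I. DDX60 (ENSG00000137628, chromosome 4, 168216294 to 168325979) had 17.8 and 15.7 CPM unheated, 11 and 10.5 CPM after heat shock and 5.7 and 5.84 CPM in the knockdown. It fell in both steps with no overlap between groups (log2 fold change -0.65 ± 0.12 SE, adjusted p = 0.000108, and -0.89 ± 0.15, adjusted p = 1.47e-05). IFIH1, at 11.3 CPM on average, fell with heat (-0.46, adjusted p = 0.00561) and was not called in the knockdown (0.22 ± 0.14, adjusted p = 0.187). That heat call was lost with DESeq2 (adjusted p = 0.103) and without unheated replicate 2 (0.101) or heat-shocked control replicate 2 (0.0714). RIGI was below 2 CPM in every library, called lower with heat (-1.35, adjusted p = 0.0142) and not called in the knockdown (-0.36, adjusted p = 0.615). Its knockdown libraries stood apart, at 0.774 and 0.209 CPM, and the value was -1.56 without replicate 1 and 0.29 without replicate 2, not called in either. Its heat call was lost with DESeq2 (0.197), and also on leaving out unheated replicate 1 (0.104) or either heat-shocked control (0.066 without replicate 1, 0.0604 without replicate 2).

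Among the transcription factors, STAT2 (ENSG00000170581, chromosome 12, 56341597 to 56360107), which acts with IRF9 at the ISRE, was highest after heat. It had 49.2 and 50.2 CPM unheated, 86.6 and 87.8 CPM after heat shock and 62 and 63.5 CPM in the knockdown. STAT2 rose with heat (log2 fold change 0.81 ± 0.06 SE, adjusted p = 3.3e-11) and fell in the knockdown (-0.47 ± 0.06, adjusted p = 1.54e-07), where it was still above the unheated libraries (0.34, adjusted p = 3.07e-05). IRF1 (ENSG00000125347, chromosome 5, 132481609 to 132490773), an activator that interferon gamma induces through a GAS in its promoter, had 51.2 and 49.9 CPM unheated and 50.4 and 48.2 CPM after heat shock, ranges that overlapped (-0.04, adjusted p = 0.683). The knockdown libraries had 19.3 and 18.4 CPM, 38.4% of the heat-shocked level (log2 fold change -1.38 ± 0.08, adjusted p = 3.53e-13). IRF9, at 3 CPM on average, was called in neither comparison (0.38 and 0.07, adjusted p = 0.231 and 0.815). IRF7, which drives the later wave of interferon genes, had 1 read in all 6 libraries together.

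PARP14 and PARP9 belong to the ADP-ribosyltransferase family, and PARP9 works with the ubiquitin ligase DTX3L. PARP14 (ENSG00000173193, chromosome 3, 122680839 to 122730840) had 147 and 148 CPM unheated and 150 and 144 CPM after heat shock, with overlapping ranges (-0.00, adjusted p = 0.989). In the knockdown it had 81 and 81.7 CPM (log2 fold change -0.86 ± 0.05, adjusted p = 8.67e-13). PARP9 (ENSG00000138496, chromosome 3, 122527924 to 122564784) had 53.4 and 50.1 CPM unheated, 27.7 and 27.5 CPM after heat shock and 21.1 and 21.7 CPM in the knockdown. Most of its fall came with heat (-0.91 ± 0.07, adjusted p = 4.11e-10), and the knockdown step was smaller (-0.36 ± 0.09, adjusted p = 0.000871). Its gene overlaps DTX3L, which had 111 CPM on average, rose with heat (0.18) and fell in the knockdown (-0.86), so reads of the overlap could belong to either gene.

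TRIM22 (ENSG00000132274, chromosome 11, 5689790 to 5710863), a ubiquitin ligase that restricts several viruses, had 62.6 and 58.1 CPM unheated, 38.7 and 37.1 CPM after heat shock and 21.2 and 18.9 CPM in the knockdown. The 3 ranges were separate, with steps of -0.67 ± 0.07 (adjusted p = 3.56e-08) and -0.92 ± 0.08 (adjusted p = 2.27e-09). SAMD9L (ENSG00000177409, chromosome 7, 93130056 to 93148385), which restricts poxviruses and limits cell growth, had 23.4 and 21.9 CPM unheated, 12.5 and 13 CPM after heat shock and 4.5 and 2.57 CPM in the knockdown. It fell with heat (-0.83 ± 0.13, adjusted p = 8.35e-06) and further in the knockdown (-1.85 ± 0.18, adjusted p = 3.82e-09). Its paralog and neighbour SAMD9, at 21.8 CPM on average, fell with heat (-0.82, adjusted p = 2.95e-07) and was not called in the knockdown (0.16 ± 0.11, adjusted p = 0.224).

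ISG20 (ENSG00000172183, chromosome 15, 88635632 to 88656483), an exonuclease that degrades viral RNA, was the only gene of the 34 called higher in the knockdown. It had 10.2 and 10.3 CPM unheated, 7.15 and 6.88 CPM after heat shock and 11.7 and 9.18 CPM in the knockdown, so the heat-shocked controls were lowest and the other groups overlapped. It fell with heat (log2 fold change -0.55 ± 0.15 SE, adjusted p = 0.00395) and was higher in the knockdown (0.57 ± 0.15, adjusted p = 0.00233). The knockdown call was lost without knockdown replicate 1 (0.39, adjusted p = 0.0667), and with DESeq2 both calls were lost (adjusted p = 0.0815 with heat and 0.0519 in the knockdown).

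Several low genes had large changes. BST2 (tetherin), which holds budding virus at the cell surface, was at 3.42 CPM on average and fell in the knockdown to 9.74% of the heat-shocked level (-3.36 ± 0.29, adjusted p = 6.78e-10). With heat BST2 was called higher (0.58, adjusted p = 0.0167), a call lost with DESeq2 (0.246) and without unheated replicate 2 (0.125) or heat-shocked control replicate 1 (0.0883). GBP1, a guanylate-binding GTPase, fell with heat (-0.80 ± 0.18) and in the knockdown (-3.62 ± 0.35, adjusted p = 4.22e-09). RSAD2 (viperin), a radical SAM enzyme that makes a chain-terminating nucleotide, fell with heat (log2 fold change -0.88 ± 0.25) and in the knockdown (-3.86 ± 0.49, adjusted p = 4.47e-07), where it was -4.77 without knockdown replicate 2. With DESeq2 the heat calls of RSAD2 and GBP1 were lost (adjusted p = 0.167 and 0.0752). CMPK2, a mitochondrial nucleotide kinase whose gene overlaps RSAD2, was not called with heat (-0.24, adjusted p = 0.566) and fell in the knockdown (-1.56 ± 0.41, adjusted p = 0.00236), a call lost without heat-shocked control replicate 2 (-1.22, adjusted p = 0.0561).

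The dynamin-like GTPases MX1 and MX2, which trap viral nucleocapsids, were both under 3 CPM. MX1 was called in neither comparison (0.38 and -0.21, adjusted p = 0.375 and 0.611). MX2 was called lower with heat (-0.999, adjusted p = 0.0246) and in the knockdown (-1.37, adjusted p = 0.0226). The heat value of MX2 went from -0.49 without heat-shocked control replicate 2 (adjusted p = 0.336) to -1.73 without replicate 1, and its call was also lost without unheated replicate 1 (0.0514) or replicate 2 (0.132) and with DESeq2 (0.263). Its knockdown call was lost without knockdown replicate 1 (-1.09, adjusted p = 0.106), without replicate 1 of the heat-shocked controls (-0.65, adjusted p = 0.419), with limma voom (0.0531) and with DESeq2 (0.117).

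The chemokines CXCL10 and CXCL11, which attract T cells through CXCR3, were not testable. CXCL10 had 6 and 8 reads unheated, 10 and 1 after heat shock and 0 in both knockdown libraries. Against a floor of 3 reads over the group, it was 3.89-fold lower there than in heat-shocked controls, whose reads are taken as exact. As 10 of the 11 heat-shocked reads came from replicate 1, that value rests on a single library. CXCL11 had between 0 and 5 reads per library, and EPSTI1 had 3 reads in heat-shocked control replicate 1 and 0 elsewhere.

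By pattern, 16 of the 34 fell in both comparisons, 7 fell in the knockdown without a heat call, and 3 fell with heat without a knockdown call. Over all tested genes these patterns took 5.34%, 13.4% and 8.65%. XAF1 among the 16, RIGI among the 3 and IFI35 in the pattern named next passed the filter in 1 group only. The filter therefore favoured a difference between groups in these genes. Opposite calls were made for IFI35, STAT2 and BST2, which rose with heat and fell in the knockdown, and for ISG20, which did the reverse, patterns of 8.4% and 9.33% of all tested genes. ISG15, MX1 and IRF9 were called in neither (28.7% of all tested genes), and IFI27 rose with heat without a knockdown call (8.14%). In 18 of the 34, XAF1 among them, every unheated library was above every heat-shocked control, and every heat-shocked control above every knockdown library. Of all tested genes 12.3% showed this order. Heat shock and knockdown were set against unheated controls in a further comparison. In it 26 of the 34 were lower and 3 higher (IFI27, IFI35 and STAT2), against 31.1% of all tested genes lower and 31.1% higher. These counts include XAF1 and RIGI (lower) and IFI35 (higher). The median was -1.63, against -0.00 over all genes. Of the 34, 23 were at least 2-fold lower and 1 at least 2-fold higher, against 1554 and 1634 of all 17290 tested genes. IFIT3 was 22.0-fold lower, IFI44 27.2-fold, OASL 6.69-fold and SAMD9L 6.4-fold. Of the 3 higher genes, IFI27 lost its call with 7 alternatives and IFI35 with 3, among them leaving out unheated replicate 2 (adjusted p = 0.116 and 0.0994) or knockdown replicate 1 (0.143 and 0.181). Without the other libraries of these groups IFI27 was also not called (0.127 without unheated replicate 1, 0.0709 without knockdown replicate 2). RIGI, among the lower genes, lost its call without knockdown replicate 2 (-1.06, adjusted p = 0.0673) and with DESeq2 (0.0649), and without knockdown replicate 1 it went from -1.71 to -2.91.

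Levels per length were compared in unheated controls, as CPM per kilobase of the deposited exon length. ISG15 led at 20.7, followed by PARP14 at 14.4, IFI6 at 12.5, IFI44 at 9.43, IFIT3 at 6.27 and IFIT5 at 6.18 CPM per kilobase. In the knockdown IFI44 was at 0.342 and IFIT3 at 0.283 CPM per kilobase. Where the deposited length counts exons these cells do not use, a gene is placed too low.

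The pathway above these genes was read from a list of 39 ligands, receptors, kinases, factors, sensors and inhibitors, of which 26 were tested. Among the 11 interferon genes of the list, only a single read of IFNE was found. Of the alpha genes only IFNA1, IFNA2 and IFNA5 were looked up. Of 11 interferon genes 10, IFNB1 among them, had 0 reads in all 6 libraries, which at 87034756 counts in all allows at most 0.0345 CPM (3 reads). This limit pools all 6 libraries and covers counting error only. Over the knockdown libraries alone, 3 reads make 0.105 CPM. The receptor chains IFNAR1 and IFNAR2 were not called with heat (0.07 and 0.02) and fell in the knockdown (-0.45 ± 0.07, adjusted p = 7.94e-06, and -0.60 ± 0.13, adjusted p = 0.000416).

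In the list as a whole 8 genes rose, 4 fell and 14 were not called with heat. In the knockdown 6 rose, 16 fell and 4 were not called, and the medians were 0.09 with heat and -0.34 in the knockdown. These counts include DHX58, above the filter only in heat-shocked controls (higher with heat, lower in the knockdown). They also include ZBP1, above it only in the knockdown and called higher there. The filter favours a difference between groups in genes that pass in this way. The shares called higher and lower were 30.8% and 15.4% with heat, against 20.6% and 23.3% over all genes, and 23.1% and 61.5% in the knockdown, against 27.4% and 27.2%. CGAS, which senses DNA in the cytosol, rose with heat from 9.33 and 9.06 CPM to 68.8 and 65.6 CPM (log2 fold change 2.87 ± 0.08 SE, adjusted p = 7.16e-19) and was at 69.3 and 66 CPM in the knockdown, with no change called (0.01, adjusted p = 0.901). STING1, the adaptor below CGAS, was at 12.8 and 13.3 CPM unheated and 13 and 12.8 CPM after heat shock, and in the knockdown at 3.31 and 3.9 CPM (log2 fold change -1.83 ± 0.15 SE, adjusted p = 4.52e-10). Other rises with heat were those of IRF8 (1.40), the inhibitor SOCS3 (0.92) and the interferon gamma receptor chain IFNGR2 (0.51). The inhibitor SOCS1 fell with heat (-1.72), as did the kinases IKBKE (-0.83) and TBK1 (-0.54), which phosphorylate IRF3. In the knockdown IRF2, a repressor of interferon genes, fell by 1.03 on the log2 scale IKBKE by 0.96 and SOCS3 by 0.72, while STAT3 rose (0.64), as did TBK1 (0.44) and the phosphatase PTPN2 (0.25). SOCS1 was called higher there at the edge of the threshold (0.56, adjusted p = 0.0488), a call lost in 10 of 15 alternatives, among them without knockdown replicate 2 (0.28, adjusted p = 0.437), without replicate 1 of the heat-shocked controls (0.39, adjusted p = 0.269) and without unheated replicate 1 or 2 (0.0569 and 0.0579).

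**Figure D4:**
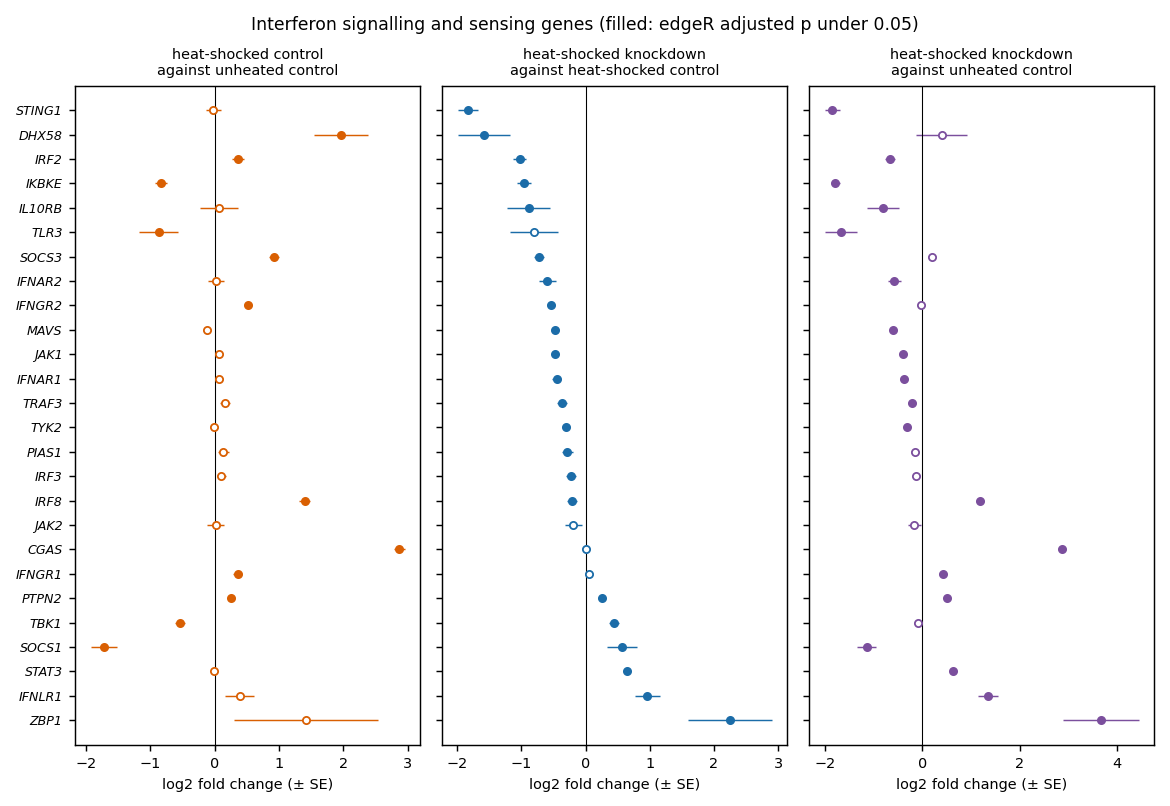
Log2 fold change (horizontal axis, with SE as bars) of the 26 tested interferon signalling and sensing genes in the same 3 comparisons, ordered by the knockdown change. Filled points passed the test, and 16 of the 26 lie filled to the left of zero in the knockdown. CGAS stands far right in both comparisons with unheated controls.

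Further interferon-stimulated genes came from a list of 51, of which 46 were tested. With heat 19 fell, 9 rose and 18 were not called (median -0.11), and in the knockdown 28 fell, 7 rose and 11 were not called (median -0.33). These shares lower, 41.3% and 60.9%, stand beside the 23.3% and 27.2% over all genes. The antiviral RNA-binding protein ZC3HAV1 (ZAP) rose with heat from 95.2 and 92.8 CPM to 269 and 252 CPM (1.47 ± 0.05) and had 149 and 146 CPM in the knockdown (-0.82 ± 0.05). The RNA-activated kinase EIF2AK2 (PKR) moved likewise, with 120 and 124 CPM unheated, 283 and 274 CPM after heat shock and 191 and 178 CPM in the knockdown. Both repeat the order of STAT2, highest in heat-shocked controls. GBP3 (0.92) and PARP12 (0.59) also rose with heat.

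The antibody receptor TRIM21 fell with heat from 48.3 and 50.8 CPM to 18.6 and 18.6 CPM and was higher in the knockdown, at 28.8 and 23.8 CPM (0.50). The RNA helicase ZNFX1 (-1.01 and 0.69) and the capsid-binding TRIM5 (-0.84 and 0.70) did the same, as ISG20 did among the 40. TRIM5 overlaps TRIM6 (12.9 CPM on average), which moved the same way (-0.85 with heat and 1.37 in the knockdown), so reads may be shared. TRIM5 also lies 4716 bases from TRIM22, which fell in both comparisons. SLFN5 fell with heat (-0.99). Among its called genes of at least 5 CPM, the largest knockdown falls were those of GBP2 (-2.18, or -2.92 without knockdown replicate 1), IFITM2 (-1.98), the immunoproteasome subunit PSMB9 (-1.96) and UBE2L6 (-1.59), the enzyme that passes ISG15 on to its ligases. PSMB9 went from 25.9 and 26.7 CPM to 6.82 and 6.68 CPM. IFITM2 is nearly identical to IFITM3 (-0.96), so its value is uncertain. TDRD7 was also called higher in the knockdown (0.41), a call lost with DESeq2 (adjusted p = 0.0571). The ISRE core was in 21 of the 38 promoter windows of this list (55.3%) and in 7 of the 31 of the signalling list (22.6%).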

How the data were processed

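The authors deposited 1 table of raw read counts per gene for the 6 RNA-seq libraries, made from TRIzol-extracted total RNA with a VAHTS Universal V8 kit and sequenced on a DNBSEQ-T7, per the labels' protocols. The submitters' processing notes name the aligner HISAT2 2.2.1 and the read counter featureCounts 2.0.2, with Trim Galore 0.6.7, FastQC 0.11.8 and SAMtools 1.17, and for statistics R 4.4.0 and DESeq2 1.36.0, on GRCh38. They give no order or settings. For the annotation, strandedness and multiply mapped reads, settings were not given in the sources used here, so counts of overlapping genes and close paralogs are uncertain. The 4 MeRIP samples were not analysed here.

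All 6 libraries entered a single edgeR 4.0.16 fit (R 4.3.3, quasi-likelihood F test, robust, TMM scaling, filterByExpr with a minimum count of 10, 3 residual degrees of freedom). It tested 17290 genes with Benjamini-Hochberg adjustment over all of them and 0.05 as the threshold. The SE given with a log2 fold change is its absolute value divided by the square root of the F statistic. Alternatives were library size alone, median ratio size factors, DESeq2 1.42.0, limma 3.58.1 (voom), other filters, no robust step, a fit of only the 2 groups compared, a replicate block, and leaving out each library. Replicates differed by more than sampling noise (chi-square per gene from 1.55 to 3.54), so none was counted as a copy. Genes without a symbol held at most 0.0698% of the counts of a library.

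The genes and the 2 further lists were chosen with earlier results of these data known. Values per library are given for genes of at least 5 CPM that were called in the knockdown, or called with heat at 2-fold or more. Of the further lists at most 4 genes per direction and comparison are named. Gene positions and promoter sequences are from RefSeq (GRCh38.p14), matched by symbol. Results for 1 gene of the signalling list and 1 leukocyte marker are not reported here, and both lists are counted without them.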

Additional observations from a re-analysis of the deposited data

How the results depend on the processing

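Of 2877 values of single named genes recomputed under alternatives, 2795 kept their side of the threshold, 75 lost a call and 7 gained one. Of the called values 0 changed sign, and values that were not called did so 45 times, in 18 genes. Of the 26 genes called lower in the knockdown, 23 kept the call in every alternative, and of the 20 called lower with heat 12 did. With DESeq2, 12 were called lower with heat and 2 rather than 4 higher. It called 0 rather than 1 (ISG20) higher in the knockdown, and 1 rather than 3 higher against unheated controls. DESeq2 also called fewer genes of the whole table with heat. It called 2362 of 18007 lower and 2413 higher, against 4033 and 3559 of 17290 with edgeR. The cause was not tested. At an unadjusted p under 0.05 DESeq2 gave 1 higher in the knockdown, as edgeR did without knockdown replicate 1, and limma voom called 1. With library size alone the median with heat was -0.67, and 5 of the further interferon-stimulated genes were called higher with heat, against 9. Leaving out single libraries, the genes called lower numbered 15 to 20 with heat and 24 to 27 in the knockdown, and those called higher 2 to 4 with heat, 0 to 1 in the knockdown and 1 to 3 against unheated controls. The lowest of the last 3 were reached without unheated replicate 2, knockdown replicate 1, and either of these. The median then ran from -1.26 to -1.13 in the knockdown and from -1.67 to -1.53 against unheated controls, with fewer libraries in these fits. No scaling moved the median of all genes by more than 0.1.

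The labels number the libraries of each group, but same-numbered libraries did not deviate together (correlations of -0.06 to 0.05 over 11521 genes), so the numbers were not taken as pairs. With the replicate block the counts stayed at 20 lower and 4 higher with heat, and 26 lower and 1 higher in the knockdown. Depth limits the low genes: 6 of the 40 could not be tested, and 15 of the 34 tested were under 5 CPM.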
